A study of Mus musculus with 32 samples.

Results

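The hindlimb buds of Etv2 conditional knockout (Etv2CKO) embryos were compared between embryonic days E10.25 and E10.5 by ATAC-seq, an assay in which a transposase cuts and tags open chromatin. All libraries titled Etv2cKO_E10_25 (n = 5) and Etv2CKO_posteriorHL (n = 2, labelled E10.5) were used, 7 of the 32 libraries of the series. Both groups carry the same genotype, HoxB6-Cre Tg/+; Etv2 fl/−, in which 1 Etv2 allele is null in all cells and the other is removed by a Cre that the study describes as active throughout the hindlimb precursor. Each library was made from the hindlimbs of several pooled embryos whose sex was not determined. The study describes the mutant cells of both stages as coming from the posterior hindlimb, which only the E10.5 titles name, and those of E10.5 as not sorted. Other hindlimb libraries are looked up beside them. By the study, the Posterior E10.5 library is EGFP+ cells of Shh-EGFP embryos and the Anterior E10.5 library is anterior hindlimb of that line. The EYFP+ libraries are sorted cells of an Etv2-EYFP line, and the E9.5 and other E10.25 libraries are wild type. The question was which regions, genes and sequence words gained or lost accessibility with stage when Etv2 was absent.

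ETV2 is an ETS-family transcription factor best known for starting the endothelial and blood programme in mesoderm. In the limb bud, retinoic acid and MEIS factors mark the proximal part, FGFs and late HOX genes such as Hoxd13 and Hoxa13 mark the distal part, and HAND2 acts in the posterior mesenchyme upstream of Shh. Promoters of widely used genes are open in most cells, whereas distal enhancers in introns and between genes change with tissue and stage.

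The sequences of 7 distal intervals that the results below turn on are given here, each 200 bp long, plus strand, read from the mm10 assembly (GRCm38.p6). They were chosen because they lie at genes of retinoic acid, FGF and posterior limb signalling or of endothelium and passed the test in either direction. Capitals mark matches on either strand to AGGTCA (nuclear receptor half-site), TGACAG (MEIS), CAATAAA or TTTATGG (HOX), AGATAA (the GATA factor word), AGGAAGT or AGGAAAT (ETV2) and CAGCTG or CATCTG (E-box). A match is a description of the letters and not evidence of binding.
Rarb intron, chr14:16603336-16603535: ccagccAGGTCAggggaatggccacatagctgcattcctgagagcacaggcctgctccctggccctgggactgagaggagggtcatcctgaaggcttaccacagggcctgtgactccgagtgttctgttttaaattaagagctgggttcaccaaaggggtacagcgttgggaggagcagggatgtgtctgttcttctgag
Aldh1a2 intron, chr9:71230139-71230338: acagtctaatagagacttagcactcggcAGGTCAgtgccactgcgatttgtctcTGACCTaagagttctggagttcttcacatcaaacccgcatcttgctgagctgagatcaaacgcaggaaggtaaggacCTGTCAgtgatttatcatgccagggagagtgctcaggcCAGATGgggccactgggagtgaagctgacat
Crabp1, intergenic, chr9:54784095-54784294: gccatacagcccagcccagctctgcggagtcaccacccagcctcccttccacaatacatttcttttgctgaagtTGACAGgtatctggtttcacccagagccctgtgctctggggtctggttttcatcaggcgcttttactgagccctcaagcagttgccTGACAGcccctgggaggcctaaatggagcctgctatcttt
Fgf10 intron, chr13:118721746-118721945: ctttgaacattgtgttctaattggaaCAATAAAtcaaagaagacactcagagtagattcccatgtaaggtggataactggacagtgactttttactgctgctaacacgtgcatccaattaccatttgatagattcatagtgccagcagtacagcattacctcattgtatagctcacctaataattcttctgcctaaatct
Tek intron, chr4:94765301-94765500: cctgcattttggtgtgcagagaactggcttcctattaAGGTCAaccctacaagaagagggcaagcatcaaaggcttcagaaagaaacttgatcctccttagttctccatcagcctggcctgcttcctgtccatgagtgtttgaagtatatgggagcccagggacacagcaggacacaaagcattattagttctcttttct
Hand2, intergenic, chr8:57328645-57328844: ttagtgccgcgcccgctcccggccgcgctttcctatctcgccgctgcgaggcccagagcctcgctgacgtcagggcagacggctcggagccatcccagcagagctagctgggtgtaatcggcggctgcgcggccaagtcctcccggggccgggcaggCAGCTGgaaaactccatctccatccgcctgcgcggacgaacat
Dusp6, intergenic, chr10:99261763-99261962: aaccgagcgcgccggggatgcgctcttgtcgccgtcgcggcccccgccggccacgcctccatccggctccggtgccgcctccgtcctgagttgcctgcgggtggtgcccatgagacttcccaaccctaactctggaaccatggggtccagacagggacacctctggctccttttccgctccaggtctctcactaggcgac

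The deposited lists held 15626 to 42742 summits in the E10.25 libraries and 34493 and 28366 in the E10.5 libraries, each with a −log10 q value and no read count, so sequencing depth is unknown. Each list was therefore ranked by that value and cut to its 15000 highest summits. The cut fell at a −log10 q of 2.18 to 21.8 across the E10.25 libraries and of 9.01 and 7.49 at E10.5. E10.25 replicate 2 stood apart: its list was the shortest, and 46.8% of its distal summits lay in repeats against 3.75% to 11.9% in the other E10.25 libraries. The overlap of the cut lists (Jaccard index) was 0.585 between the E10.5 libraries and 0.354 to 0.516 across stages. Between E10.25 libraries the index was 0.353 to 0.652, and 0.472 to 0.652 without replicate 2. The E10.25 labels carry 5 different dates, the E10.5 libraries come from a separately named set, and stage and library set cannot be told apart. Nothing in the labels says that libraries share embryos, and the p-values measure the spread between these libraries only.

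The E10.5 lists held fewer promoters and more distal summits. A promoter summit lay within 1000 bp of an annotated gene start. Its share was 71.7%, 63.1%, 72.6%, 69.1% and 67.5% in E10.25 replicates 1 to 5 and 55.5% and 55.9% at E10.5, so the groups did not overlap. The mean share was 68.8% ± 3.78 at E10.25 and 55.7% ± 0.226 at E10.5 (SD, n = 5 and 2), which differ by -13.1 percentage points. The exact two-sided permutation test over the 21 splits of 5 and 2 libraries gave p = 0.0476, the smallest p this design allows, and an adjusted p of 0.0857 over 9 measures. Summits in distal introns made up 13.7% ± 1.75 (SD, n = 5) at E10.25 and 20.1% ± 0.137 (SD, n = 2) at E10.5. Intergenic summits rose from 15.8% ± 2.29 to 22.7% ± 0.0707, and summits over 50 kb from any start from 5.98% ± 1.29 to 11.03% ± 0.104 (SD, n = 5 and 2). In each of these the groups were apart and the exact permutation p was again 0.0476. The mean GC content of the summits was 62.3% ± 1.64 at E10.25 and 57.7% ± 0.399 at E10.5 (SD, n = 5 and 2, exact permutation p = 0.0476). Among the 5000 highest summits the promoter share was 84.9% to 91.0% at E10.25 against 68.7% and 69.7% at E10.5. Over the whole deposited lists the difference was -8.89 percentage points and the groups overlapped (exact permutation p = 0.286).

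**Figure D1:**
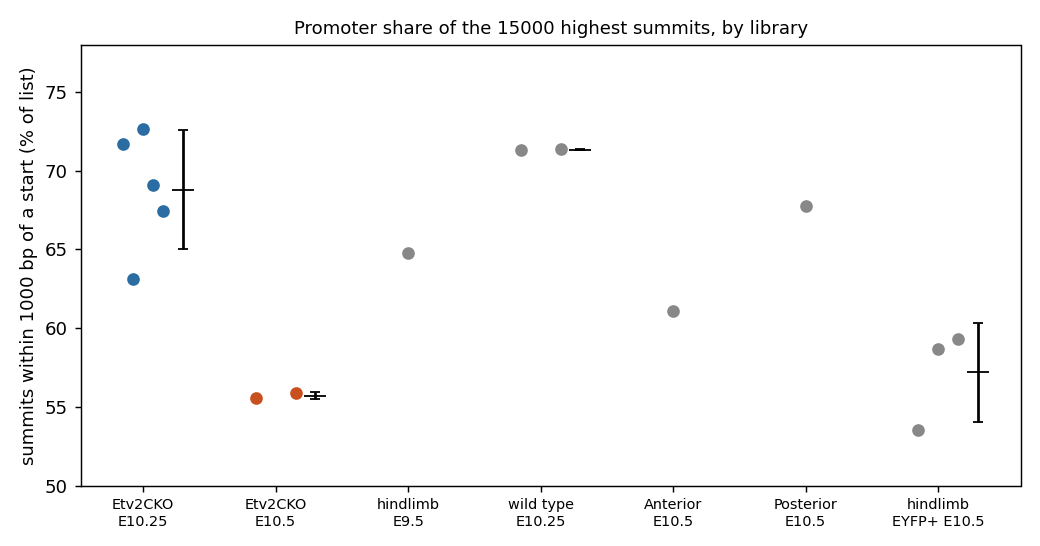
Share of the 15000 highest summits within 1000 bp of a gene start (percent, axis from 50) for each library as a point, with the mean and SD beside groups of 2 or more. Both Etv2CKO E10.5 points, at 55.5% and 55.9%, lie below all 5 Etv2CKO E10.25 points (63.1% to 72.6%) while the 3 hindlimb EYFP+ E10.5 points lie at 53.6% to 59.3%, the Posterior E10.5 library at 67.7%, the Anterior E10.5 library at 61.1%, the E9.5 library at 64.8% and the wild-type E10.25 libraries at 71.3%. The Anterior list held only 13763 summits.

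Regions were then compared one by one. Summits were gathered into 200-bp intervals, and each library gave an interval a rank score that runs from 1 for the highest summit to 0 for a summit beyond rank 15000 or not listed. Of 21974 intervals tested with limma, 1204 scored higher at E10.5 (5.48%) and 573 lower (2.61%) at an adjusted p under 0.05. The higher calls were mostly distal: 1089 of 8069 distal intervals were higher (13.5%) and 34 lower (0.421%). The lower calls were mostly promoters, with 539 of 13905 promoter intervals lower (3.88%) and 115 higher (0.827%). Without E10.5 replicate 1 or 2 the higher calls numbered 225 and 187 and the lower calls 204 and 188. The higher calls numbered 758 without E10.25 replicate 1 and 791 without replicate 3.

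Because promoters and distal summits share one ranking, a fall of one class raises the other, and the calls were repeated within the 5000 highest distal summits of each library. There 260 of 7760 intervals were higher at E10.5 (3.35%) and 61 lower (0.786%). Single summits can also move within a broad open region. When a summit counted within 1000 bp of an interval, 1574 intervals were higher (7.16%) and 1442 lower (6.56%). Then 1040 of the 1089 distal higher calls and 31 of the 34 distal lower calls passed again, but only 66 of the 115 higher promoter calls. With both changes made at once, the distal ranking and the 1000 bp, 301 intervals were higher (3.88%) and 165 lower (2.13%). By presence alone, 1000 intervals were listed in both E10.5 libraries and in no E10.25 library (4.55%), 907 of them distal, and 550 in all E10.25 libraries and in neither E10.5 library (2.5%), 483 of them at promoters. The first count asks for a summit in 2 libraries and the second in 5, so group size also sets these counts. Of the 1204 higher calls, 468 had no E10.25 summit in the cut lists and were tested only through E10.5. Among intervals listed in at least 3 libraries, 603 were higher and 475 lower. The distal higher intervals lay at a median of 29069 bp from a start and had a mean GC content of 45.5%, against 51.7% over all distal intervals tested. The 34 distal lower intervals had a mean of 66.5% and a median distance of 4730 bp.

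**Figure D2:**
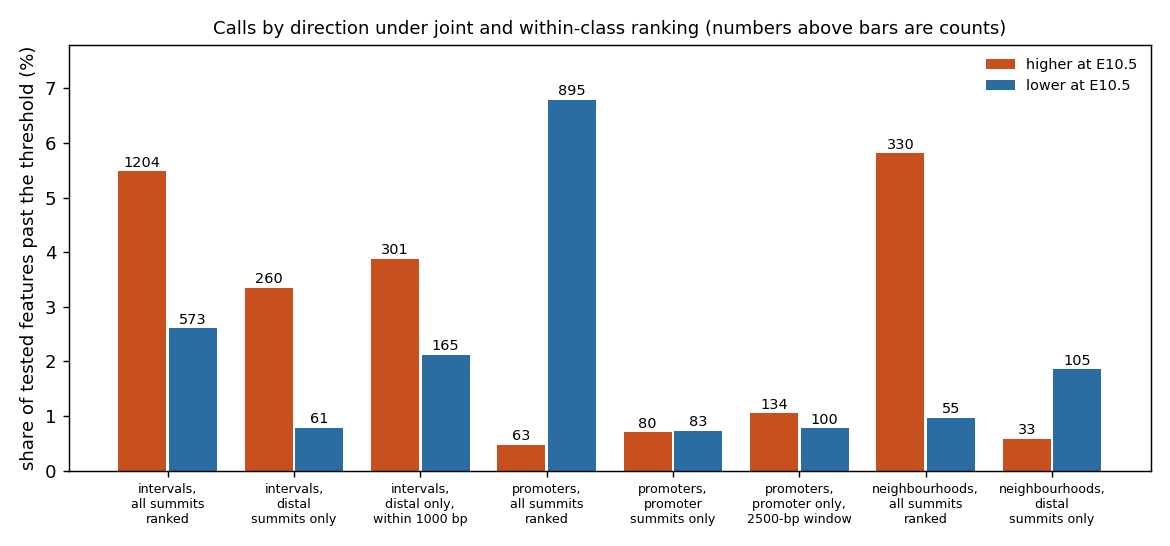
Percentage of tested intervals, gene promoters and gene neighbourhoods called higher (orange) or lower (blue) at E10.5 by limma, with all summits in one ranking or only summits of one class, the latter for intervals and promoters also with a wider reach around the interval or start. The wider window within promoter summits takes only summits within 1000 bp of some start. Numbers above the bars are counts. In one ranking 895 promoters were lower and 63 higher, against 83 lower and 80 higher within promoter summits and 100 and 134 there with a 2500-bp window, while neighbourhoods had 330 higher and 55 lower calls in one ranking and 33 and 105 within distal summits.

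Within 50 kb of the 13 genes on the proximal and retinoic acid list, 17 distal intervals were tested and 3 were higher at E10.5, where 13.5% of all distal intervals were higher, and none of 29 promoter intervals passed. The interval in the first listed sequence lies in an intron of Rarb, a retinoic acid receptor, 27609 bp from the nearest protein-coding start, and holds 1 nuclear receptor half-site. It had rank 18055, 13229, 10779, 11593 and 11212 in E10.25 replicates 1 to 5, and rank 2234 and 922 in the E10.5 libraries (difference 0.719 ± 0.0923 (SE), limma adjusted p = 0.00656). It was listed in all 7 libraries, and both E10.5 ranks were above every E10.25 rank. The Aldh1a2 interval, in an intron of the gene for the enzyme that makes retinoic acid, lies 14450 bp from the start and holds 2 half-sites and 1 MEIS word. It had rank 27209 and 20958 in E10.25 replicates 1 and 5, not listed in replicates 2, 3 and 4, and rank 7669 and 4404 in the E10.5 libraries (difference 0.598 ± 0.0707 (SE), limma adjusted p = 0.00497). The intergenic interval 19447 bp from Crabp1, which encodes a cytoplasmic retinoic acid binding protein, holds 2 MEIS words. It had rank 14820, 13979 and 16039 in E10.25 replicates 1, 3 and 5, not listed in replicates 2 and 4, and rank 5543 and 6036 in the E10.5 libraries (difference 0.598 ± 0.0545 (SE), limma adjusted p = 0.00250). At both of these the E10.5 ranks stood above all E10.25 ranks. Among distal summits alone, counted within 1000 bp as above, the difference was 0.602 for Aldh1a2 (limma adjusted p = 0.0139) and 0.538 for Crabp1 (0.0346), and Rarb no longer passed (0.601, limma adjusted p = 0.116). Rarb also missed the threshold without E10.5 replicate 1 (limma adjusted p = 0.0531) or 2 (0.0740).

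Within 50 kb of the 17 genes on the FGF list, 22 distal intervals were tested. Of these, 2 were higher (9.09%) and 1 lower (4.55%) at E10.5, against 13.5% and 0.421% over all distal intervals. None of 28 promoter intervals passed. Fgf10, a ligand from the limb mesenchyme that drives outgrowth, had an intron interval with rank 13069, 9394, 19477 and 6506 in E10.25 replicates 1, 3, 4 and 5, not listed in replicate 2, and rank 603 and 956 in the E10.5 libraries (difference 0.734 ± 0.168 (SE), limma adjusted p = 0.0461). It held 1 HOX word. Both E10.5 ranks were above every E10.25 rank, and E10.25 replicate 5 came closest to them. Of the 7 fits that left out a library it passed in 1, without E10.25 replicate 5, and the highest limma adjusted p was 0.234, without E10.5 replicate 1. At Spry1, an inhibitor of FGF receptor signalling, an interval 18243 bp away had rank 14475, 19111 and 22113 in E10.25 replicates 1, 3 and 5, not listed in replicates 2 and 4, and rank 10822 and 11242 in the E10.5 libraries (difference 0.258 ± 0.0519 (SE), limma adjusted p = 0.0296); it too passed in only 1 of the 7 fits that left out a library, with a highest limma adjusted p of 0.214. Dusp6, an ERK phosphatase induced by FGF, gave opposite values at neighbouring places. The interval 1368 bp from its start had rank 7725, 4132, 8524, 5553 and 5415 in E10.25 replicates 1 to 5, and rank 21549 and 26461 in the E10.5 libraries (difference -0.582 ± 0.0923 (SE), limma adjusted p = 0.0134), and all 5 E10.25 ranks were above both E10.5 ranks. This held among distal summits alone (-0.824, limma adjusted p = 0.00339) but not without E10.5 replicate 1 (0.102) or 2 (0.106). At the promoter of Dusp6 the best summit within 500 bp of a start had rank 6265, 5542, 5714, 8447 and 4357 in E10.25 replicates 1 to 5, and rank 1020 and 879 in the E10.5 libraries, a difference of 0.341 ± 0.0801 (SE, limma adjusted p = 0.0491), which passed in only 1 of 7 fits without a library. The highest limma adjusted p there was 0.212, without E10.5 replicate 2. With promoters ranked alone the difference was 0.560, with a limma adjusted p of 0.0522 in the 500-bp window and 0.0491 in a 2500-bp window.

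Within 50 kb of the 10 genes on the posterior list, 11 distal intervals were tested. Of these, 2 were higher (18.2%) and 1 lower (9.09%) at E10.5, against 13.5% and 0.421% over all distal intervals. None of 11 promoter intervals passed. At Hand2, a bHLH factor of the posterior limb bud, a pair of distal intervals went in opposite directions. The interval 27329 bp away, chr8:57293554-57293753, in an intron of Hand2os1, had rank 25359, 14630 and 26203 in E10.25 replicates 1, 3 and 5, not listed in replicates 2 and 4, and rank 10123 and 8355 in the E10.5 libraries (difference 0.379 ± 0.0576 (SE), limma adjusted p = 0.0117). The interval 7762 bp away had rank 10207, 6746, 6830, 7473 and 9449 in E10.25 replicates 1 to 5, and rank 14203 and 20003 in the E10.5 libraries (difference -0.431 ± 0.0856 (SE), limma adjusted p = 0.0286). The E10.5 ranks were above every E10.25 rank at the first and below every one at the second. Among distal summits alone only the lower call passed (-0.714, limma adjusted p = 0.00833, against 0.270, limma adjusted p = 0.215, for the farther one). The higher call was lost without E10.5 replicate 1 (limma adjusted p = 0.0562) or 2 (0.115). The lower call was lost without E10.25 replicate 2 (limma adjusted p = 0.0534) or 3 (0.0644) and without E10.5 replicate 1 (0.151) or 2 (0.200).

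Col2a1, the main collagen of cartilage, had an intron interval 14336 bp from its start, chr15:97990221-97990420, with rank 12643, 16375, 13327 and 18232 in E10.25 replicates 1, 3, 4 and 5, not listed in replicate 2, and rank 7310 and 8928 in the E10.5 libraries (difference 0.405 ± 0.0741 (SE), limma adjusted p = 0.0219). Both E10.5 ranks preceded all of the E10.25 ranks. It was the only 1 of 7 distal intervals within 50 kb of the 12 genes on the cartilage list to be higher (14.3%, against 13.5% over all distal intervals). It did not pass among distal summits alone (0.288, limma adjusted p = 0.369), nor without E10.25 replicate 3 (0.0553), E10.5 replicate 1 (0.179) or E10.5 replicate 2 (0.100). In the HoxB cluster, an intergenic interval 3470 bp from Hoxb5, chr11:96306882-96307081, had rank 11956, 13828, 14281, 15017 and 15371 in E10.25 replicates 1 to 5, and rank 7067 and 9019 in the E10.5 libraries (difference 0.398 ± 0.0794 (SE), limma adjusted p = 0.0287). Hoxb5 encodes a homeobox factor of the trunk and the forelimb level, and the E10.5 ranks were again the highest. It lies 72 bp from the start of a transcript that is not protein-coding and so counts among the promoter intervals, of which 0.827% were higher.

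**Figure D3:**
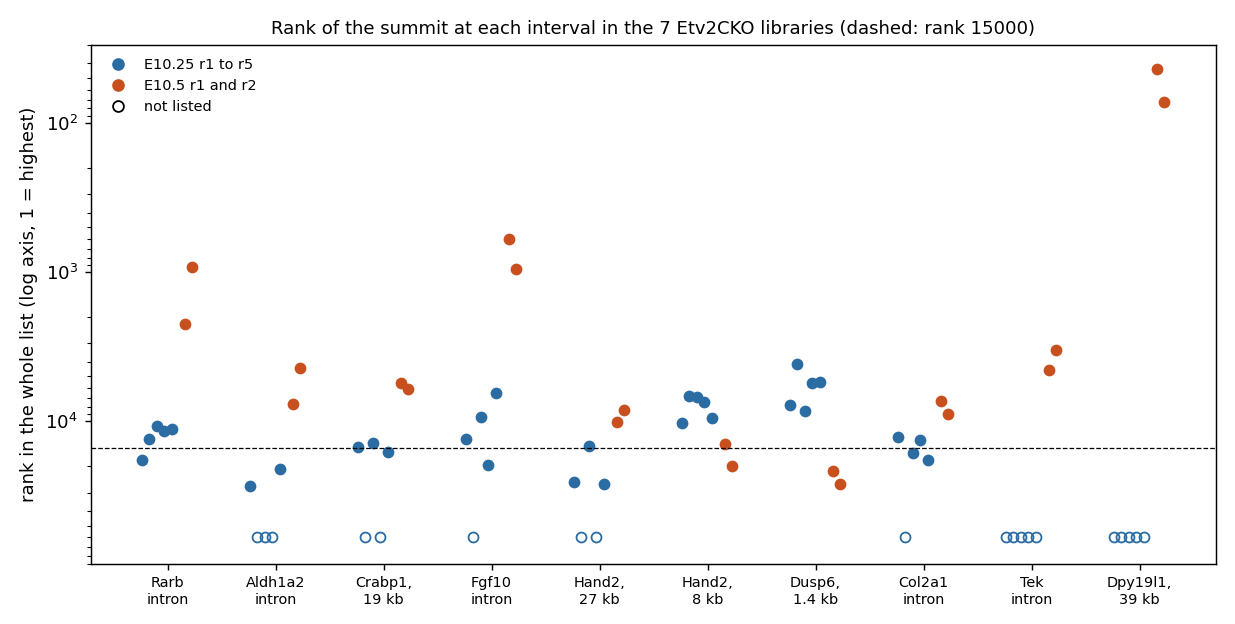
Rank of the summit at 10 intervals in each Etv2CKO library (log axis, 1 at the top, dashed line at rank 15000); open circles are libraries without a summit. The E10.5 points lie above the E10.25 points at Rarb, Aldh1a2, Crabp1, Fgf10, the farther Hand2 interval, Col2a1, Tek and the interval near Dpy19l1, and below them at the nearer Hand2 interval and Dusp6.

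Endothelial genes were examined because the mutant lacks the factor that starts that lineage. Within 50 kb of the 17 genes on the endothelial list, 16 distal intervals were tested and 3 were higher at E10.5 (18.8%), against 13.5% over all distal intervals. Of 16 promoter intervals 1 was lower (6.25%), against 3.88% over all promoter intervals. The intron interval of Tek, which encodes the angiopoietin receptor TIE2, 25883 bp from its start, was not listed in any of the 5 E10.25 libraries and had rank 4563 and 3322 in the E10.5 libraries (difference 0.737 ± 0.0539 (SE), limma adjusted p = 0.00148). It kept the call among distal summits alone (0.769, limma adjusted p = 0.00339). As its score was 0 in all 5 E10.25 libraries, leaving 1 of them out left the difference at 0.737 and was no further check. The interval entered the test only through the 2 E10.5 libraries. Without an E10.5 library it was listed too rarely to be tested. With lists of 5000 summits it did not pass (0.212, limma adjusted p = 0.192). The same interval had rank 18845 at E9.5, 12670 in 1 of the 2 wild-type E10.25 libraries, 7489 in the Posterior E10.5 library and 5160, 4449 and 11091 in the hindlimb EYFP+ libraries, whose cells were sorted as negative for surface TIE2, CD31 and CD45. At Erg, an ETS factor of endothelium and early cartilage, an interval 2490 bp away had rank 11511, 22881, 16239 and 13532 in E10.25 replicates 1, 3, 4 and 5, not listed in replicate 2, and rank 7097 and 3571 in the E10.5 libraries (difference 0.578 ± 0.0986 (SE), limma adjusted p = 0.0177). At Egfl7, a secreted endothelial protein, an intron interval 231 bp from the start of Gm20532, thus a promoter interval, went the other way and had rank 6918, 10171, 8874, 8850 and 9880 in E10.25 replicates 1 to 5, and rank 32303 and 26214 in the E10.5 libraries (difference -0.404 ± 0.0744 (SE), limma adjusted p = 0.0221). Of the 17 genes on the endothelial list, 7 had no summit within 2500 bp of a start in any of the 7 libraries. Tek itself lacked one there, as did the defining genes Cdh5, Pecam1, Tie1 and Emcn and also Etv2. Tal1, a bHLH factor of blood and endothelium, had a summit there in all 5 E10.25 libraries (rank 12622 to 26076) and in neither E10.5 library. Sox7, Sox18 and Esam were listed in 3 of 5 E10.25 libraries and Sox17 in 2 of 5, and none of these in an E10.5 library. Kdr, the VEGF receptor, was listed in all 7, at rank 5967 to 11963. Of the 12 blood genes 6 were without one, including Gata1, Alas2, Ptprc and Csf1r. The share of endothelial cells in the pools was not measured, and its part in the Tek and Erg values was not tested.

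The intervals with the lowest p were mostly summits that moved a short way. Of the 16 named for the lowest p, 4 passed when a summit within 1000 bp counted. The largest gain among these was an intergenic interval 38961 bp from Dpy19l1, which encodes a C-mannosyltransferase. It lay at chr9:24542001-24542200 and had rank 44 and 73 in the E10.5 libraries, with no summit in any E10.25 library or in any of the 8 other hindlimb libraries (difference 0.996 ± 0.0505 (SE), limma adjusted p = 0.000981). Only the E10.5 libraries brought it into the test. Of its bases 24.9% were repeat-masked. The next 2 intervals were chosen after their values were seen, among those that passed within 1000 bp. At Fzd1, a Wnt receptor, an interval 18777 bp away had rank 19514, 22090 and 20784 in E10.25 replicates 1, 3 and 5, not listed in replicates 2 and 4, and rank 4040 and 3334 in the E10.5 libraries (difference 0.754 ± 0.0516 (SE), limma adjusted p = 0.00130). In an intron of Zfpm2, a GATA cofactor, chr15:40852948-40853147 had rank 17717 in E10.25 replicate 3, not listed in replicates 1, 2, 4 and 5, and rank 4360 and 3522 in the E10.5 libraries (difference 0.737 ± 0.0521 (SE), limma adjusted p = 0.00139). Zfpm2 was also listed in the 3 hindlimb EYFP+ libraries, at ranks 12903, 12169 and 19718, and in neither wild-type E10.25 library.

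The markers of the distal and proximal limb did not pass the test. Hoxd13, a late distal HOX gene, had a promoter summit at rank 6372, 11750, 7867 and 17230 in E10.25 replicates 1, 3, 4 and 5, not listed in replicate 2, and rank 14423 in E10.5 replicate 1 with no summit in replicate 2 (difference -0.234 ± 0.173 (SE), limma adjusted p = 0.475). Hoxa13, its paralog in the HoxA cluster, had rank 17992 and 19334 in E10.25 replicates 1 and 3, not listed in replicates 2, 4 and 5, and rank 26569 in E10.5 replicate 1 with no summit in replicate 2; no rank was within 15000, so its promoter was not tested. Meis1, a proximal homeobox gene, had rank 13371, 9242, 12762 and 17338 in E10.25 replicates 1, 2, 3 and 5, not listed in replicate 4, and rank 5590 and 14325 in the E10.5 libraries (difference 0.208 ± 0.169 (SE), limma adjusted p = 0.518). The sign of the Meis1 value turned without E10.5 replicate 1 (-0.0833) and with a 2500-bp window (-0.106). Summed scores of distal summits within 50 kb of a start, called the neighbourhood of a gene, differed by -0.0423 for Hoxd13, -0.0426 for Hoxa13 and -0.134 for Meis1, with limma adjusted p of 0.871, 0.853 and 0.751. Hoxd13 was within the 15000 highest summits in 3 of 5 E10.25 libraries and 1 of 2 E10.5 libraries. Prrx1, a limb mesenchyme marker, had a summit within 2500 bp of a start among the 15000 highest in 4 of 5 E10.25 libraries and in both E10.5 libraries.

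Across genes, 63 of 13179 promoters were higher at E10.5 (0.478%) and 895 lower (6.79%), and 330 of 5681 neighbourhoods were higher (5.81%) and 55 lower (0.968%). The median difference was -0.0953 over all promoters and 0.0102 over all neighbourhoods. The higher promoter calls numbered 40 without E10.25 replicate 3, 17 without E10.5 replicate 1 and 9 without E10.5 replicate 2. The lower promoter calls numbered 467 without E10.25 replicate 1, 434 without E10.25 replicate 3, 579 without E10.25 replicate 5, 271 without E10.5 replicate 1 and 240 without E10.5 replicate 2. The higher neighbourhood calls numbered 164 without E10.25 replicate 1, 155 without E10.25 replicate 3, 100 without E10.5 replicate 1 and 86 without E10.5 replicate 2. The lower neighbourhood calls numbered 23 without E10.25 replicate 1, 23 without E10.25 replicate 3, 28 without E10.25 replicate 5, 7 without E10.5 replicate 1 and 0 without E10.5 replicate 2. Neighbouring genes can share summits, so these counts are not counts of independent changes. On 20 lists of limb, signalling and cell type genes, few genes passed. In the proximal and retinoic acid list of 13 genes, none of 7 promoters tested passed (median 0.0236), while the neighbourhoods of Crabp1 and Aldh1a2 were higher and that of Pbx2 lower among 10 tested (median 0.160). The neighbourhood score of Aldh1a2 was 0.498, 0.666, 0.174, 0.521 and 0.542 in E10.25 replicates 1 to 5 and 1.26 and 1.54 in the E10.5 libraries, a difference of 0.918 ± 0.144 (SE, limma adjusted p = 0.0184). That of Crabp1 was 0.0121, 0.266, 0.0863, 0 and 0 in E10.25 replicates 1 to 5 and 0.901 and 0.832 in the E10.5 libraries, a difference of 0.794 ± 0.0911 (SE, limma adjusted p = 0.00937). The Aldh1a2 call was lost without E10.5 replicate 1 (limma adjusted p = 0.0573) or 2 (0.132), and the Crabp1 call without E10.5 replicate 1 (0.0539). Neither passed among distal summits alone (limma adjusted p = 0.0602 and 0.168), where no neighbourhood of the list was higher, Pbx2 was lower and the median turned to -0.112. In the distal limb list of 11 genes none of 4 promoters (median -0.0757) and none of 10 neighbourhoods (median -0.0426) passed. List medians moved with the ranking: within distal summits that of the distal limb neighbourhoods was -0.330, of FGF -0.361, of BMP -0.346 and of the posterior list 0.110, beside -0.137 over all neighbourhoods. With promoters ranked alone and the 2500-bp window, the promoter medians were 0.113 for FGF, 0.151 for BMP and 0.0268 for the posterior list, beside -0.0115 over all promoters.

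In the FGF list of 17 genes the Dusp6 promoter was the only 1 of 11 to pass (median -0.0271), and the Spry1 neighbourhood the only 1 of 10 (median -0.162). In the posterior list of 10 genes none of 7 promoters passed (median -0.0937) and Sall3, a zinc finger factor, was the only 1 of 4 neighbourhoods (median 0.392). Sall3 lost the call in each of the 7 fits that left out a library (limma adjusted p up to 0.193, without E10.5 replicate 1). In the hedgehog list of 11 genes the promoter of Cdon, a co-receptor, was lower among 9 (median -0.170), and none of 10 neighbourhoods passed (median 0.150). None of 11 BMP promoters (median 0.0123), 12 BMP neighbourhoods (0.0237), 11 Wnt promoters (-0.113) or 10 Wnt neighbourhoods (-0.0152) passed. Among 16 promoters of cell death and p53 genes Bid, a pro-apoptotic BCL2 family member, was lower (median -0.0888), and among 11 neighbourhoods Pmaip1, which encodes NOXA, was higher (median -0.130). Among 15 promoters of proliferation genes Plk1, a mitotic kinase, was lower (median 0.00429) and none of 6 neighbourhoods passed (median 0.0110). Anterior limb, limb identity, cartilage, blood, myoblast, ectoderm and nerve lists had no call in either measure. In the other lists the calls were the promoter of Prrx1 and the neighbourhood of Lmx1b (limb mesenchyme), the promoter of Egfl7 and the neighbourhoods of Tek and Erg (endothelium), the neighbourhood of Wt1 (trunk) and the promoter of Hprt (housekeeping). The Prrx1 promoter did not pass when summits up to 2500 bp from a start counted: it had rank 7688, 10251, 3528 and 3641 in E10.25 replicates 1, 3, 4 and 5, not listed in replicate 2, and rank 7422 and 5406 in the E10.5 libraries, a difference of 0.107 (limma adjusted p = 0.779). With promoters ranked alone the difference was 0.431 ± 0.0786 (SE, limma adjusted p = 0.0480) in the 2500-bp window and 0.299 (limma adjusted p = 0.0919) in the 500-bp window.

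The excess of lower promoters went with the fall in their share. Within the 8000 highest promoter summits, 80 of 11327 promoters were higher (0.706%) and 83 lower (0.733%). With these promoter summits counted within 2500 bp of a start of the gene, 134 of 12761 were higher (1.05%) and 100 lower (0.784%). This second setting is called within promoters here. Its summits all lie within 1000 bp of some start, so a summit that moved farther from every start is not counted. In it 35 of the 63 higher and 85 of the 895 lower calls passed again. The promoters named next were chosen after their values were seen, from those that passed within promoters. Epha4, an ephrin receptor of the limb mesenchyme, had rank 8438, 10053, 9490, 15820 and 10071 in E10.25 replicates 1 to 5, and rank 3450 and 3060 in the E10.5 libraries. Both E10.5 ranks were above all E10.25 ranks, and the difference within promoters was 0.655 ± 0.0670 (SE, limma adjusted p = 0.0136) against 0.490 ± 0.117 (SE, limma adjusted p = 0.0511) in the joint ranking. Foxc1, a forkhead factor of mesoderm, had rank 11450, 10086, 11369, 11243 and 10121 in E10.25 replicates 1 to 5, and rank 5556 and 3586 in the E10.5 libraries, a difference of 0.419 ± 0.0648 (SE, limma adjusted p = 0.0171) in the joint ranking and 0.583 ± 0.0673 (SE, limma adjusted p = 0.0164) within promoters. Without E10.5 replicate 2 its joint call was lost (limma adjusted p = 0.0936). Lin37, a subunit of the cell cycle repressor complex DREAM, had rank 8263, 12532, 9520, 9861 and 12004 in E10.25 replicates 1 to 5, and rank 2329 and 4812 in the E10.5 libraries (0.652 ± 0.0788 (SE, limma adjusted p = 0.0171) within promoters). Efnb1, which encodes the ligand ephrin-B1, had rank 9808, 11450, 10362 and 12823 in E10.25 replicates 1, 3, 4 and 5, not listed in replicate 2, and rank 6071 and 5434 in the E10.5 libraries (0.510 ± 0.0573 (SE, limma adjusted p = 0.0151) within promoters). In the joint ranking Efnb1 did not pass (0.409 ± 0.101 (SE, limma adjusted p = 0.0547)). On the BMP list the promoters of Id1, Id2 and Id3 were higher within promoters, 3 of 11 tested, against 1.05% over all promoters. For Id2, however, the best summit of any class within 2500 bp had rank 6097, 3618, 7108, 4388 and 5121 in E10.25 replicates 1 to 5, and rank 3660 and 4743 in the E10.5 libraries, and the stages overlapped. In the joint ranking that window gave Id2 a difference of 0.0710 (limma adjusted p = 0.610).

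Of the 85 promoters that fell in both rankings, 3 are described, also chosen after their values were seen. Btaf1, which encodes an ATPase that removes TBP from DNA, had rank 1669, 2659, 1488, 902 and 2028 in E10.25 replicates 1 to 5, and rank 16855 and 11979 in the E10.5 libraries (-0.783 ± 0.0723 (SE, limma adjusted p = 0.00520); -0.756 ± 0.0738 (SE, limma adjusted p = 0.0136) within promoters). Tada1, a subunit of the SAGA coactivator, had rank 3012, 2830, 2867, 3319 and 1847 in E10.25 replicates 1 to 5, and rank 19255 in E10.5 replicate 1 with no summit in replicate 2 (-0.815 ± 0.0554 (SE, limma adjusted p = 0.00170)). Dpy30, a subunit of histone H3 methyltransferases, had rank 2955, 2417, 2414, 3151 and 2266 in E10.25 replicates 1 to 5, and rank 10577 and 12520 in the E10.5 libraries (-0.594 ± 0.0601 (SE, limma adjusted p = 0.00604)). In each all E10.25 ranks were above both E10.5 values. The same promoters varied between the 8 other hindlimb libraries, with a best summit within 2500 bp at rank 4230 to 9990 for Btaf1 and 1855 to 6465 for Dpy30. For Tada1 the rank ran from 1776 in a wild-type E10.25 library to 18564 in an EYFP+ library, with no summit in the Anterior library. Of the 10 promoters on the housekeeping list 9 were tested, and Hprt was the 1 that was lower (median -0.0564, beside -0.0953 over all promoters). Hprt did not pass within promoters (-0.145, limma adjusted p = 0.477). The list median there was -0.145, beside -0.0115 over all promoters. By interval, 4 of 31 promoter intervals within 50 kb of these genes were lower (12.9%), against 3.88% over all promoter intervals.

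Among neighbourhoods, 33 of the 330 higher and 52 of the 55 lower calls also passed among the 5000 highest distal summits, where 33 of 5639 were higher in all (0.585%) and 105 lower (1.86%). The sign was kept there by 329 of the 330 and by all 55, and the median difference over all neighbourhoods was -0.137 there against 0.0102 in the joint ranking. Map3k13, a kinase of stress signalling, had a summed score of 0.0835, 0, 0, 0.173 and 0.169 in E10.25 replicates 1 to 5 and 1.54 and 1.45 in the E10.5 libraries, a difference of 1.41 ± 0.0786 (SE, limma adjusted p = 0.000988). Ndnf, a secreted factor, had 0, 0.136, 0.179, 0.0145 and 0.234 in E10.25 replicates 1 to 5 and 1.25 and 1.22 in the E10.5 libraries, a difference of 1.12 ± 0.0843 (SE, limma adjusted p = 0.00275), and passed without each library in turn. At both genes every E10.25 score was below both E10.5 scores. Pdia4, a disulfide isomerase of the endoplasmic reticulum, scored lower at E10.5, with 3.21, 3.46, 2.86, 2.60 and 3.20 in E10.25 replicates 1 to 5 and 1.20 and 1.51 in the E10.5 libraries, a difference of -1.71 ± 0.233 (SE, limma adjusted p = 0.0132). The call was lost without E10.5 replicate 1 (limma adjusted p = 0.0822) or 2 (0.0642). Lin28b, an RNA binding protein that blocks let-7 maturation, had 0.756, 0.804, 0.622, 0.544 and 0.830 in E10.25 replicates 1 to 5 and 0.159 and 0.141 in the E10.5 libraries, a difference of -0.562 ± 0.0950 (SE, limma adjusted p = 0.0224). It was lost without E10.25 replicate 1 (limma adjusted p = 0.0549) and without E10.5 replicate 1 (0.110) or 2 (0.137), and its sign turned over the whole lists (0.0828). Pbx2, a cofactor of HOX proteins, shares its distal summits with Ager, Notch4 and other genes of a dense locus. Their score was 0.788, 0.505, 0.677, 0.550 and 0.581 in E10.25 replicates 1 to 5 and 0 and 0 in the E10.5 libraries, a difference of -0.620 ± 0.0893 (SE, limma adjusted p = 0.0135), and missed the threshold without E10.5 replicate 1 (limma adjusted p = 0.0811) or 2 (0.0892).

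Of 11 landscapes around limb patterning genes, those of Meis1 and Meis2 held more summits at E10.5. Each spans the gene as well as the gene desert beside it, and promoter summits are counted. Both genes encode proximal homeobox factors. The Meis2 landscape held 9, 8, 10, 8 and 14 of the 15000 highest summits in E10.25 replicates 1 to 5 and 22 and 15 at E10.5, on average 9.80 ± 2.49 (SD, n = 5) against 18.5 ± 4.95 (SD, n = 2). The Meis1 landscape held 8, 10, 9, 10 and 8 against 12 and 13, on average 9.00 ± 1.00 against 12.5 ± 0.707 (SD, n = 5 and 2). Neither overlapped between stages (exact permutation p = 0.0476 each, the smallest possible, adjusted 0.262 over 11). As more distal summits were listed at E10.5 in all, the count was repeated among the 5000 highest distal summits. There Meis2 stood at 7.20 ± 2.39 against 14 ± 1.41 (SD, n = 5 and 2, exact permutation p = 0.0476), and Meis1 overlapped between stages (p = 0.238 by the exact permutation test). The other hindlimb libraries held 14 (E9.5), 10 and 9 (wild-type E10.25), 11 (Anterior), 11 (Posterior) and 15, 18 and 18 (EYFP+) in the Meis2 landscape.

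The landscape telomeric to Hoxd1, which holds the enhancers of the early proximal HoxD phase, had 6, 4, 6, 10 and 10 summits at E10.25 and 9 and 9 at E10.5 (exact permutation p = 0.429). The centromeric landscape beyond Evx2, which serves the late distal phase, had 7, 5, 4, 7 and 5 against 8 and 6 (exact permutation p = 0.381). The domain of Shh, the signal of the posterior limb margin, had 4, 3, 3, 4 and 3 against 4 and 5 (exact permutation p = 0.143). In these, and in the other 6 landscapes with p from 0.333 to 0.619, the stages overlapped.

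**Figure D4:**
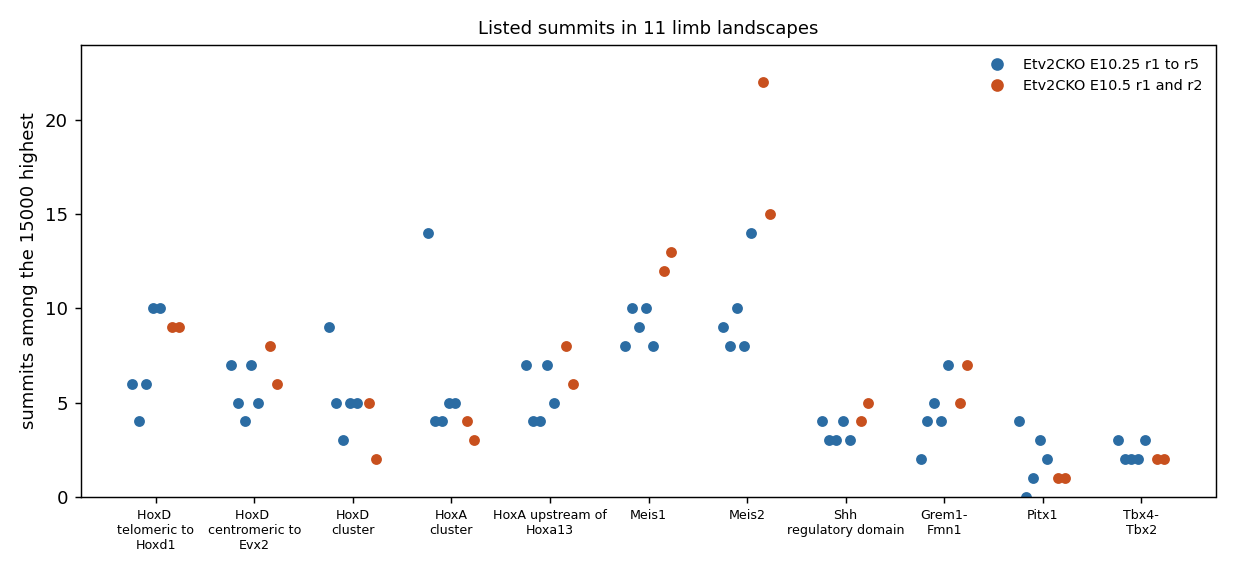
Number of the 15000 highest summits in each of 11 landscapes, a point per Etv2CKO library (blue E10.25, orange E10.5). The stages are apart at Meis1 (8 to 10 against 12 and 13) and Meis2 (8 to 14 against 22 and 15) and overlap elsewhere. E10.25 replicate 1 is high in the HoxA cluster, with 14 summits.

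No sequence word around distal summits (100 bp on each side) passed the test between the stages. Each word was counted on both strands against its expectation at matched GC content, and the deviation is the excess over that expectation as a fraction of it. Of 2107 words, all six-base words and 27 factor words, none passed with limma in either direction (0% and 0%). At an unadjusted p under 0.05, 6 were higher and 8 lower. HOX13 (CAATAAA) occurred at 4.78%, 2.35%, 4.798%, 5.73% and 4.88% of distal summits in E10.25 replicates 1 to 5 and at 7.47% and 6.98% at E10.5. After matching for GC its deviation differed by 0.152 ± 0.112 (SE, limma adjusted p = 0.999). HOX10/HOX11 (TTTATGG or TTTATTG, the latter being CAATAAA on the other strand) differed by 0.193 ± 0.127, MEIS by 0.0977 ± 0.0771, GATA by 0.0432 ± 0.0705 and ETV2 by -0.00126 ± 0.0811 (SE, limma adjusted p = 0.999 each). PBX-HOX (TGATTGAT or TGATTTAT) had the lowest unadjusted p of the factor words, 0.0444, with 0.312 ± 0.133 (SE, limma adjusted p = 0.999). The nuclear receptor half-site differed by 0.213 ± 0.114 (SE, limma adjusted p = 0.999), with E10.25 replicate 2 at -0.352. Among the six-base words of lowest limma p, the higher ones differed as follows, CTACTC by 0.209, TAGTAA by 0.211, CTTGAC by 0.216, TACTCA by 0.173 and TAGTCA by 0.237. By the same limma fit the lower ones, after ACGTAT, were TACGTA by -0.268, GTTCGA by -0.371, TATCGA by -0.334 and AAAAAA by -0.329, and none passed. ACGTAT had the lowest p of all, with a difference of -0.400 ± 0.0984 (SE, limma adjusted p = 0.999).

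**Figure D5:**
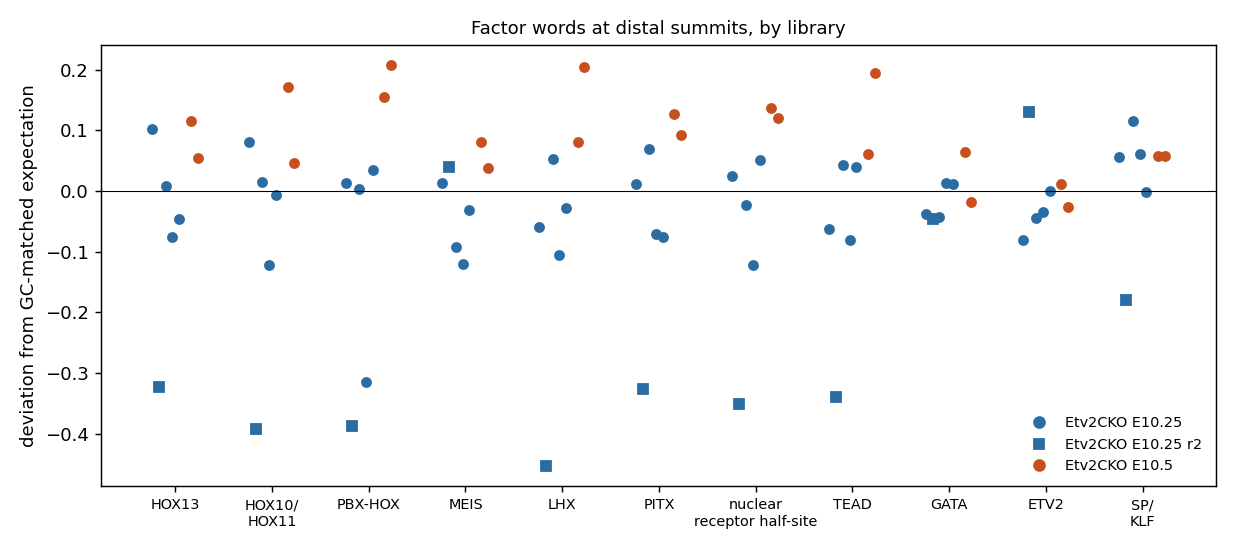
Deviation of 11 factor words from their GC-matched expectation at distal summits, a point per library (blue E10.25, with squares for replicate 2, orange E10.5). E10.25 replicate 2 lies lowest for most words. Both E10.5 points lie above all E10.25 points for PBX-HOX, LHX, PITX, the nuclear receptor half-site and TEAD, though none of these words passed. The stages overlap for the others, and for ETV2 both E10.5 points fall within the E10.25 range.

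The distal intervals called higher can be described by the same words, without a test, since these intervals differ in GC content from the rest. The nuclear receptor half-site AGGTCA was present in 285 of the 1089 distal higher intervals (26.2%) and in 17.5% of the 8069 distal intervals tested. HOX words were in 18.6% against 11.9%, MEIS in 24.2% against 18.7%, GATA in 12.2% against 8.29%, E-boxes in 37.5% against 31.9% and ETV2 words in 13.9% against 12.6%. Among the 34 distal lower intervals 2 held the half-site and none a HOX word.

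The called intervals were also looked up in the other hindlimb libraries. The calls were chosen by their scores in the mutant lists. All 539 lower promoter intervals were listed in each E10.25 mutant library, and 6.70% to 41.1% of the 1089 distal higher ones. Shares above or below those of all tested intervals are thus partly set by that choice, and they were not tested. Of the 1089 distal intervals higher at E10.5 in the mutant, 27.7% and 24.98% were listed in the wild-type E10.25 libraries, 29.8% at E9.5 and 43.4%, 47.7% and 37.9% in the hindlimb EYFP+ E10.5 libraries. Over all distal intervals tested these shares were 39.1%, 38.7%, 38.5%, 41.9%, 44.8% and 44.5%. The higher intervals were listed at 19.3% in the Posterior E10.5 library and 12.3% in the Anterior E10.5 library, 1 library each, against 32.2% and 29.7% over all distal intervals. The 539 lower promoter intervals were listed in 92.8% and 91.5% of cases in the wild-type E10.25 libraries and in 57.3%, 67.2% and 71.6% in the EYFP+ libraries, against 76.4%, 75.9%, 56.3%, 62.6% and 64.2% over all promoter intervals tested. The shares were 83.5% in the Posterior, 60.7% in the Anterior and 71.4% in the E9.5 library, against 70.6%, 55.7% and 67.4% over all promoter intervals. The EYFP+ cells were sorted from an Etv2-EYFP line, so genotype, sort and library set differ from the mutant at once and their parts cannot be told apart. The Posterior library holds EGFP+ cells of Shh-EGFP embryos, so genotype and sort differ there too. The Anterior library comes from Shh-EGFP embryos and from another part of the bud.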

How the data were processed

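ATAC-seq had been done on pooled hindlimb buds, per the labels, and reads were aligned to mm10 with Bowtie2 2.2.4 and peaks called per library with MACS2, whose version was not stated. The deposited values, made by the authors, are −log10 q values of peak summits. No read counts are used here, so depth is unknown. Lists were cut to the 15000 highest summits, mitochondrial summits left out. Rank scores in 200-bp intervals, promoters (500 bp), distal neighbourhoods (50 kb) and words were compared with limma 3.58.1 (R 4.3.3), Benjamini-Hochberg adjusted p under 0.05, features listed in at least 2 libraries; summit classes and landscapes used exact permutation. Python 3.11.15 and GENCODE M21 were used, and the code was tested on simulated data. Alternatives covered list length, summit distance, ranking within a class, repeats, pairing and each library left out.

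Named features were the 8 of lowest p in each direction (intervals at most 50% repeat), up to 3 called intervals per list, promoters and neighbourhoods of each list past the threshold and the markers; only some are described, and additions chosen after their values were seen are marked. The members and gene lists were chosen with earlier results of these data known.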

Additional observations from a re-analysis of the deposited data

Results flagged for a closer look

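Of 50 values examined over the 5 E10.25 libraries, 10 had a single library far from the other 4, where chance gives about 1 in 20. E10.25 replicate 2 accounted for 9 of them. Its share of summits in distal exons was 1.21% (1.65% to 1.83% in the others), its repeat-masked share was 17.9% (1.37% to 4.29%), and 46.8% of its distal summits were repeat-masked (3.75% to 11.9%). Fewer of its distal summits held the words of HOX13 (2.35% against 4.78% to 5.73%), HOX10/HOX11 (4.39% against 9.81% to 10.8%), PITX (3.02% against 5.51% to 6.32%), the E-box CATCTG (10.48% against 18.4% to 20.9%), the nuclear receptor half-site (8.78% against 15.6% to 17.4%) and p53 (3.29% against 5.69% to 6.55%). E10.25 replicate 1 had 14 summits in the HoxA cluster, where the others had 4 to 5.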

How the results depend on the processing

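Calls are given as higher and lower at E10.5. Intervals numbered 496 and 180 with lists of 5000, 487 and 120 over whole lists, 260 and 61 among distal summits (301 and 165 within 1000 bp), 120 and 95 among promoter summits, 603 and 475 when listed in at least 3 libraries, 262 lower within 100 bp and 1442 lower within 1000 bp. Without 1 library they ran from 187 to 1219 and from 188 to 859. Neighbourhoods numbered 203 and 5 with lists of 5000, 1 and 0 over whole lists, 33 and 105 among distal summits and 610 and 90 within 100 kb. There were 18 higher beyond 5000 bp from a start, 22 lower with lists of 10000 and 115 lower by number of summits; without 1 library they ran from 86 to 268 and from 0 to 61. Promoters numbered 19 and 30 over whole lists, 134 and 100 within promoters (83 lower with the 500-bp window), 137 higher within 2500 bp, 32 higher by presence, and 505 and 164 lower with lists of 10000 and 5000; without 1 library they ran from 9 to 67 and from 240 to 1124. Intervals in every E10.25 library only numbered 265 (lists of 5000), 280 (whole lists), 300 (within 100 bp) and 653 to 1013 without 1 library, and those of E10.5 only 545 (lists of 5000) and 1000 to 1329. The promoter share differed by -8.89 percentage points over whole lists and by -14.5 to -12.1 without 1 library, where the exact permutation p was 0.0667 to 0.167, the smallest those designs allow.

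Landscapes with an exact p under 0.05 numbered 1 with lists of 10000, 1 with lists of 5000, 1 among distal summits and 0 over whole lists. Without 1 library no exact p under 0.05 was possible, so that count says nothing. The difference in those fits was 3 to 4 summits for Meis1 and 5.2 to 12.2 for Meis2. The sign turned for the distal exon share with lists of 5000 (0.056), the Meis1 promoter without E10.5 replicate 1 (-0.0833, and 0.499 without replicate 2) and with a 2500-bp window (-0.106), and the Lin28b neighbourhood over whole lists (0.0828). With the replicate number as a block, limma called 0 intervals, promoters or neighbourhoods in either direction (2235 and 1847 intervals at an unadjusted p under 0.05). Same-numbered libraries deviated together with r of 0.026 and 0.017. The deviations of the 2 E10.5 libraries mirror each other, so these r cannot show whether same-numbered libraries share embryos or preparation. No word passed under any alternative run. The cause of these changes was not tested, and with 2 libraries at E10.5 and no read counts the precision of single calls is limited.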

Other observations

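Words that contain CG tended to be lower at E10.5. Of 604 such six-base words 388 had a negative difference in deviation (64.2%), 490 did once repeat-masked summits were left out (81.1%), and 564 did when E10.25 replicate 2 was left out as well (93.4%). Among the 5000 highest distal summits 340 did (56.3%). Of the 1476 words without CG the numbers were 310 (21%), 349 (23.6%), 541 (36.7%) and 351 (23.8%) in the same order. The words share summits and overlap each other, and no single word passed the limma test in these settings, so these shares are a description of the 7 libraries.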
